A study of Mus musculus with 18 samples.

Results

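Clu, the gene of clusterin, was followed through heat shock (HS) and tunicamycin (Tu) treatment of mouse fibroblasts by mRNA-seq. It is 1 of the 20207 genes listed for each sample and 1 of the 12731 genes that were tested, which are those with a read in each of the 18 samples. Clu was chosen by its measured heat response, since it stood among the clearest heat-induced genes at 135 min, so its level at that time, and every comparison that uses those samples, is given here as a description without a test.

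All 18 samples came from NIH3T3 cells, an established mouse embryonic fibroblast line, that stably expressed a destabilizing domain (DD) fused to superfolder GFP. The cells were a population sorted for high fluorescence, and the ligand S1, which keeps the domain folded, stayed in the medium of every group, controls included. Control cells were kept at 37°C without added stress and harvested at 0 min. HS cells were moved to 42°C and harvested after 45 or 135 min, a 405 min sample being left out by the study because many heated cells died. Tu cells were kept at 37°C with tunicamycin, which blocks N-linked glycosylation in the endoplasmic reticulum (ER), for 45, 135 or 405 min. Each of the 6 groups held 3 samples, named below by their replicate numbers, and the labels do not say whether these were separate cultures, so p-values here measure only the spread between these samples.

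Clusterin, also called apolipoprotein J, is a secreted, heavily N-glycosylated protein that is cleaved into paired chains in the secretory pathway and acts outside the cell as a chaperone that keeps unfolding proteins soluble. It is taken up with its cargo by endocytic receptors at the cell surface, and it also restrains the terminal complement complex. The factors known to act on its promoter include HSF1, the activator of the heat shock response, and AP-1, a dimer of Fos and Jun family proteins.

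Between 33415592 and 66478268 reads fell on genes per sample, so that 3 reads, taken as the floor of detection, came to at most 0.0898 CPM. CPM is the count of a gene scaled to the size of its library, here adjusted by the trimmed mean of M-values (TMM) over all 18 samples. All 8 fibroblast markers had a median of at least 1 RPKM (reads scaled by gene length and by library size), and their summed RPKM ran from 4320 to 12000, being lowest at Tu 405 min. Summed epithelial markers ran from 0.0288 to 0.366 RPKM, endothelial from 0.03 to 0.122, haematopoietic from 5.53 to 11.6 and neural from 2.06 to 11.7, the latter highest at Tu 405 min. The neural sum was almost wholly Tubb3 (mean 2.88 RPKM in controls, 11.4 at Tu 405 min), with Gfap at most 0.0203 and Rbfox3 not listed. The haematopoietic sum was almost wholly Cd68 and Cd14, with Ptprc at most 0.00532. In these bulk samples, fewer cells and less RNA per cell cannot be told apart. The third HS 45 min sample stood apart from its group: edgeR's quasi-likelihood test called 0 genes at HS 45 min with it and, without it, 21.5% of genes higher and 23.9% lower at an adjusted p under 0.05. Counts of calls at HS 45 min are therefore given both ways, and those without it are to be read against these shares. Other samples stood apart too, by chi-square per degree of freedom between replicates. The first control, used in every comparison with control, gave 259.5 and 227.4 with the others, against 15.14 between those. The first Tu 135 min sample gave 266.9 and 246.6, against 26.97. The third HS 45 min sample gave 593.2 and 825.3, against 107.7, and pairs at HS 135 min ran from 226.5 to 709.5.

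The Clu gene lies on the + strand of chromosome 14 (mm9), chr14:66587320-66600382 in every deposited file. The GENCODE annotation of the same assembly gives it 9 transcripts, of which the one that spans the gene has 9 exons and 1344 coding bases out of 1811. The files hold 1 value for the gene as a whole, and no other gene they list overlaps it. Its closest listed neighbours were Scara3, which ends 14.7 kb before it, and Gulo, which starts 5.2 kb after it.

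Clu mRNA was scarce in unstressed cells and abundant after prolonged heat. The 3 control samples held 91, 129 and 116 Clu reads, or 2.28, 2.3 and 2.65 CPM. After 45 min of HS they were 427, 299 and 432 reads, or 8.15, 6.51 and 6.28 CPM. After 135 min of HS they were 2917, 4943 and 4464 reads, or 46.1, 110.0 and 78.5 CPM. All HS samples thus lay above all controls, and all samples at 135 min lay above all samples at 45 min.

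In Tu, Clu lay below every HS sample of the same time at both 45 and 135 min. At Tu 45 min the samples held 247, 224 and 191 reads, or 3.67, 2.97 and 4.04 CPM. At Tu 135 min they held 201, 183 and 179 reads, or 4.86, 3.43 and 4.9 CPM. At Tu 405 min they held 168, 169 and 194 reads, or 2.65, 2.98 and 3.49 CPM. The samples at 45 and 135 min lay above all controls, while those at 405 min overlapped the controls.

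**Figure D1:**
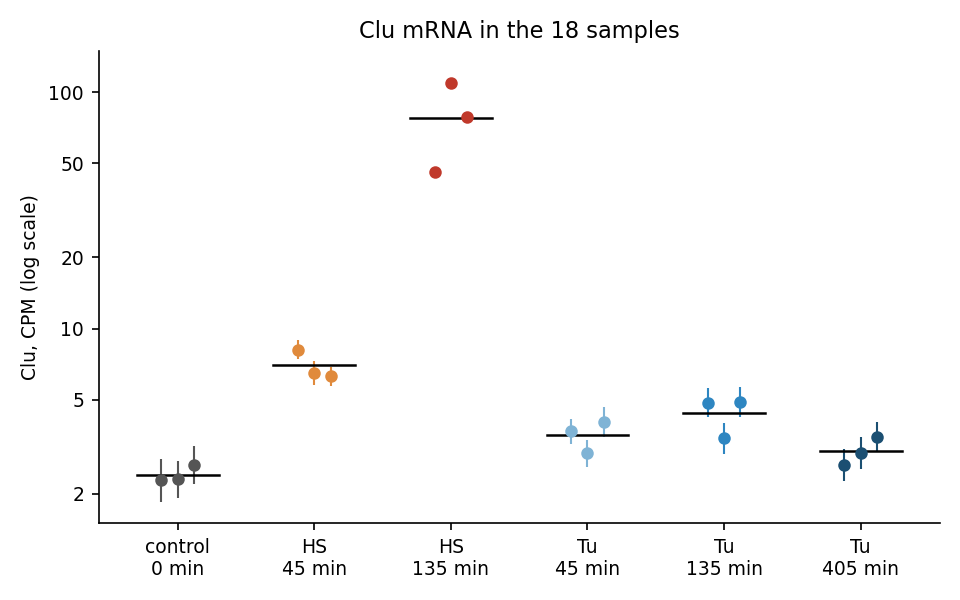
Clu level in CPM on a log axis for each of the 18 samples, by group; points are samples, vertical bars are 95% Poisson intervals that cover counting error only, and horizontal lines are group means. The HS 135 min samples lie between 46.1 and 110.0 CPM, above every other sample, and the Tu samples lie between 2.65 and 4.9 CPM.

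As group means, Clu stood at 2.41 ± 0.208 CPM (SD, n = 3) in controls, 6.98 ± 1.02 at HS 45 min and 78.1 ± 31.7 at HS 135 min. With tunicamycin it was 3.56 ± 0.548 CPM (SD, n = 3) at 45 min, 4.4 ± 0.837 at 135 min and 3.04 ± 0.424 at 405 min. The means were therefore 2.89 and 32.3 times the control mean in HS and 1.47, 1.82 and 1.26 times in Tu. On the RPKM scale the same ratios were 2.55 and 27.5 in HS, and 1.57, 1.76 and 1.2 in Tu.

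In descending order the groups ran HS 135 min, HS 45 min, Tu 135 min, Tu 45 min, Tu 405 min and control. The ranges of HS 135 min, HS 45 min and Tu 135 min did not overlap. The ranges of Tu 135 min and Tu 45 min overlapped, as did those of Tu 45 min and Tu 405 min, of Tu 135 min and Tu 405 min, and of Tu 405 min and control. With 3 samples per group, an overlap of ranges does not show that groups are equal.

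Clu spread most where it was highest. Its coefficient of variation (CV) was 8.61% in controls, close to the 9.52% that counting error alone gives at these read numbers. At HS 135 min it was 40.6%, against 1.59% from counting. In that group the first sample had less than the others and the second had the most.

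Ranked by RPKM among all listed genes, Clu moved from between the 9661st and 9802nd place in the controls to between the 1474th and 2807th at HS 135 min. By log2 fold change at HS 135 min (5.01, standard error 0.375) it was 9th of the 12731 genes. Just above it were Rpph1 (5.12), the RNA component of RNase P, and Atf3 (5.62), a stress-induced transcription factor, and just below it were Dnaja4 (4.89), an HSP40 cochaperone, and Fgf21 (4.64), a secreted metabolic hormone. Of the 9 genes with a change at least that of Clu, 3 reached at least its mean level at HS 135 min, these being Hspa1a, Hspa1b and Clu. For background, 605 genes were called higher and 336 lower at HS 135 min (edgeR, adjusted p under 0.05), which is 4.75% and 2.64% of those tested. Clu was also higher at HS 135 min than at HS 45 min by a log2 fold change of 3.43, and higher than at Tu 135 min by 4.13. These values used the samples by which Clu was chosen, and nothing is read from them beyond their size.

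At the earlier heat time Clu was higher than control by a log2 fold change of 1.53 (SE 0.268, 95% interval 0.91 to 2.16). This was the 169th largest rise. The heat samples of this time were not those by which Clu was chosen, but the 3 controls were shared with that choice. Clu and the comparisons were also chosen with earlier results of these data known. The p-values of Clu here and below are therefore not independent of the choice. The unadjusted p was 0.000547 and the adjusted p 0.227 (edgeR's quasi-likelihood test, Benjamini-Hochberg), so the difference did not pass the threshold. Neither did any other gene: 0% were called in either direction, while 1568 genes were higher and 912 lower at an unadjusted p under 0.05. DESeq2 called 386 genes higher and 65 lower, Clu among the former with an adjusted p of 4.34e-05. Without the third HS 45 min sample the log2 fold change of Clu was 1.6 and its adjusted p 0.0025 in edgeR. Over all alternatives run, the adjusted p moved across the threshold in 3 of 15, and the direction in none.

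With tunicamycin, no difference of Clu from control passed the threshold in edgeR, and 1 did in DESeq2. All of these comparisons share the 3 control samples of the contrast that chose Clu, and they were chosen with earlier results of these data known. At Tu 45 min the log2 fold change was 0.57 (SE 0.191, 95% interval 0.13 to 1.01, adjusted p = 0.115, edgeR), where 4.01% of genes were called higher and 2.17% lower. At Tu 135 min it was 0.88 (SE 0.244, 95% interval 0.32 to 1.44, adjusted p = 0.145, edgeR), where 0.126% were called higher and 0.00785% lower. DESeq2 gave that difference, 0.87 in its fit, an adjusted p of 0.0338. At Tu 405 min it was 0.35 (SE 0.184, 95% interval -0.07 to 0.78, adjusted p = 0.146, edgeR), where 23.3% were called higher and 23.5% lower. The interval at 405 min reached a fold of 1.71 over control.

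Between the tunicamycin times, no difference of Clu passed the threshold in edgeR with all samples and TMM. From 45 to 135 min the log2 fold change was 0.31 (95% interval -0.21 to 0.82, adjusted p = 0.545, edgeR), in a comparison that called 0.291% of genes. From 135 to 405 min it was -0.55 (95% interval -1.05 to -0.05, adjusted p = 0.0732, edgeR), in one that called 43.7%. The latter fall had an adjusted p of 0.0442 in edgeR without the second Tu 135 min sample, which was the lowest of its group, and of 0.0478 in DESeq2. From 45 to 405 min it was -0.27 (95% interval -0.67 to 0.13, adjusted p = 0.228, edgeR), where 52.5% of genes were called.

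The 2 stresses were also compared directly at 45 min, where no control sample enters. This comparison too was chosen with earlier results of these data known. Clu was higher in HS than in Tu by a log2 fold change of 0.97 (SE 0.23, 95% interval 0.42 to 1.52), with all 3 HS samples above all 3 Tu samples. The adjusted p was 0.123 (edgeR), in a comparison that called 0.204% of genes. Without the third HS 45 min sample it was 1.04, with an adjusted p of 0.00582, and DESeq2 on all samples gave 1.01 and 0.00374.

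**Figure D2:**
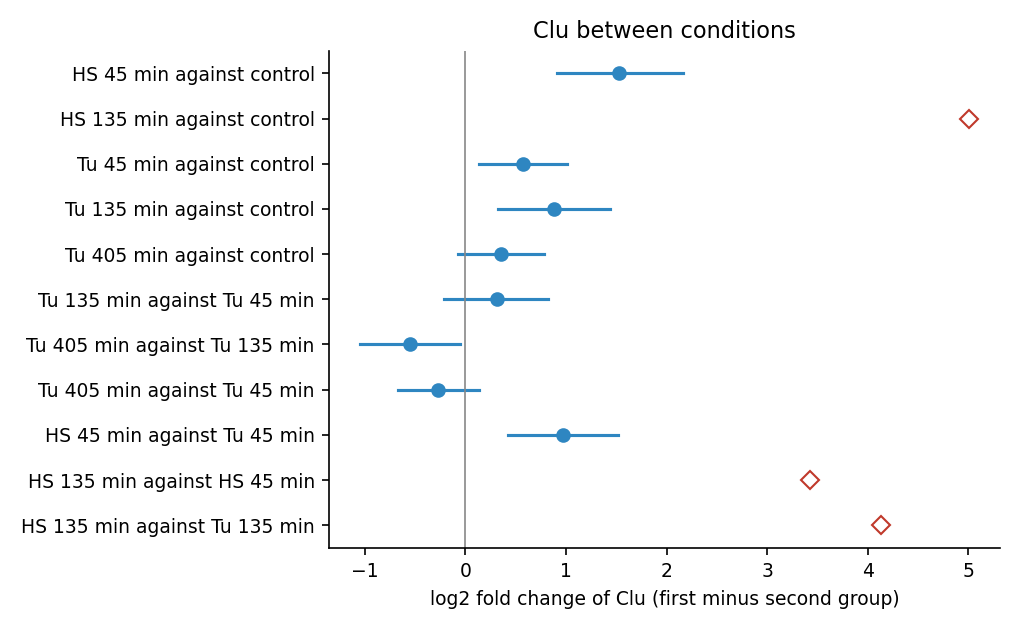
Log2 fold changes of Clu between groups; filled circles with lines are tested comparisons with 95% intervals from edgeR's quasi-likelihood fit, and open diamonds are comparisons that use the HS 135 min samples by which Clu was chosen, shown without an interval. The diamonds lie at 5.01, 3.43 and 4.13, and the tested comparison with the largest value is HS 45 min against control at 1.53.

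Clusterin is often set beside the targets of HSF1, which include the inducible HSP70 genes Hspa1a and Hspa1b, the HSP110 gene Hsph1 and the HSP70 cochaperone Bag3. Of 20 such genes, all tested, 15 were called higher and 0 lower at HS 135 min (edgeR), where 4.75% and 2.64% of all genes were, with a median log2 fold change of 1.65 against -0.02 over all genes. That count fell to 3 without the third HS 135 min sample, to 4 without the second control and to 3 without the third control, while the median stayed between 1.6 and 1.74 in these fits. Over all genes the number called fell from 941 to 11, 15 and 11 in the same fits. Hspa1b rose by a log2 fold change of 7.24 (adjusted p = 0.0058, edgeR), Bag3 by 4.17 (adjusted p = 0.00792) and Stip1, an HSP70-HSP90 adaptor, by 1.47 (adjusted p = 0.0207). Hspa1a and Hspa1b are near-identical copies, and reads may have been split between them. The value of Clu, 5.01, lay above 17 of the 20, a place that follows in part from the choice of Clu by this same response.

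At HS 45 min, edgeR called 0 of the 20 HSF1 targets, with a median of 0.34. Without the third HS 45 min sample it called 9 higher and 2 lower, where it called 45.4% of all genes. At an unadjusted p under 0.05, 8 were higher and 1 lower, against 12.3% and 7.2% of all genes. DESeq2 called 5 higher, where it called 386 of all genes higher and 65 lower. The largest log2 fold changes were those of Hspa1b (4.99, adjusted p = 0.192, edgeR) and Hspa1a (4.93, adjusted p = 0.192).

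With tunicamycin the median of the HSF1 targets was below 0 at every time, whereas the value of Clu was above it. At Tu 45 min 0 of 20 were called higher and 5 lower, against 4.01% and 2.17% of all genes, with a median log2 fold change of -0.52, where the value of Clu was 0.57. Hspa1b fell by 1.4 (adjusted p = 0.0214, edgeR) and Dnajb1, an HSP40 cochaperone, by 0.96 (adjusted p = 0.0173). The 5 calls at Tu 45 min were 0 without the first or the second Tu 45 min sample, 2 without the third, 0 without the second or the third control and 15 without the first control. Leaving out the first control took the number called over all genes there from 786 to 2499. By 405 min 3 were called higher and 11 lower, against 23.3% and 23.5% of all genes, with a median of -0.58 and a value for Clu of 0.35. Hspa8, the constitutive HSC70, fell by 1.56 (adjusted p = 0.000111) and Serpinh1, the collagen chaperone HSP47 of the ER, rose by 1.08 (adjusted p = 0.00067). At Tu 135 min edgeR called 0, with a median of -0.3. At an unadjusted p under 0.05, 1 was higher and 4 lower, against 10.1% and 8.5% of all genes. DESeq2 called 1 lower, where it called 318 of all genes higher and 321 lower. Whether Clu differed from the HSF1 targets was not tested.

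**Figure D3:**
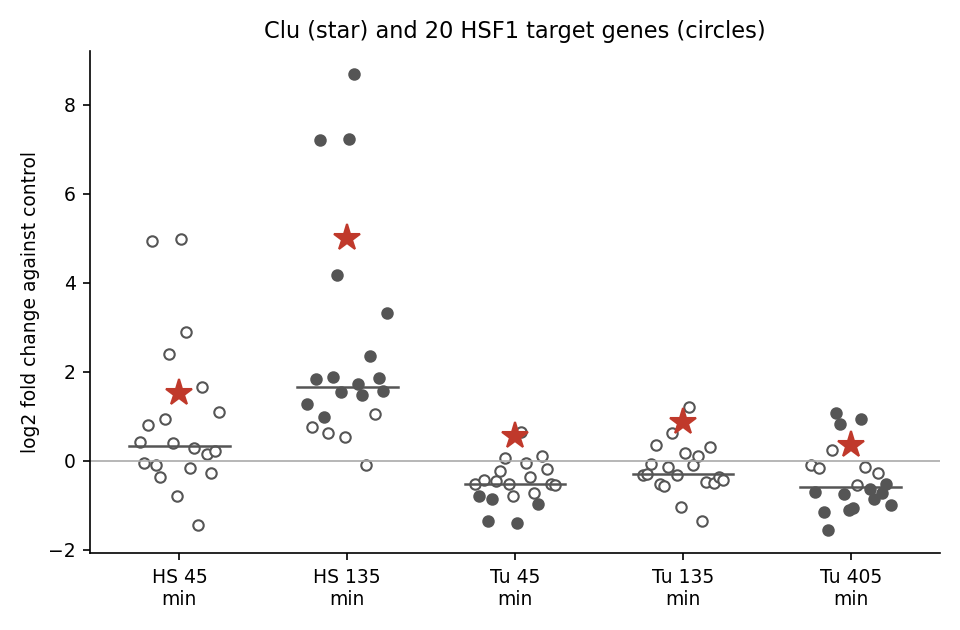
Log2 fold change against control of Clu (star) and of 20 HSF1 target genes (circles, filled where the adjusted p from edgeR is under 0.05) at each stress and time; horizontal lines are medians of the 20. The medians are 0.34 and 1.65 in HS and lie between -0.58 and -0.3 in Tu, where the values of Clu are 0.57, 0.88 and 0.35.

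Most other extracellular chaperones had few or no reads in these cells. Of 17 such genes, 7 had enough reads to test, and the other 10, among them albumin and the fibrinogen chains, had at most 29 reads in any sample. At HS 135 min 1 was called higher and 0 lower, against 4.75% and 2.64% of all genes, with a median log2 fold change of 0.61. This was Pzp, a broad protease inhibitor related to alpha-2-macroglobulin, which had 14, 29 and 14 reads in the controls and 112, 53 and 94 at HS 135 min. Its log2 fold change was 1.94 (adjusted p = 0.0211, edgeR), and the call was lost without the third HS 135 min sample or without any 1 of the controls. Pzp fell at Tu 405 min by 2.0 on the log2 scale (adjusted p = 0.00327), with 4, 6 and 7 reads. In the other 3 comparisons with control edgeR called 0 of the 7. At an unadjusted p under 0.05, 1 was lower at HS 45 min, 3 at Tu 45 min and 2 at Tu 135 min. Over all genes 7.2%, 11.5% and 8.5% were. DESeq2 called 1 lower at Tu 45 min, where it called 871 of all genes lower. At HS 45 min without the third sample edgeR called 1 higher and 1 lower, against 21.5% and 23.9% of all genes.

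Dnajb11, an ER-resident HSP40 that can also be secreted with its clients, was highest with prolonged tunicamycin. It stood at 42, 70.9 and 70.1 CPM in the controls, at 108.0, 94.0 and 93.4 at HS 135 min and at 485.0, 558.0 and 509.0 at Tu 405 min. The rise at Tu 405 min was 3.11 on the log2 scale (adjusted p = 3.5e-05, edgeR), and the HS 135 min value, 0.69, had an adjusted p of 0.115. Sparc, a collagen-binding matrix protein, fell at Tu 405 min by 0.57 (adjusted p = 0.0208), a call also lost without any 1 of the Tu 405 min samples.

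Per length, Clu ranked 5th of the 18 extracellular chaperones counting itself in 5 of the 6 groups and 3rd at HS 135 min. Its mean RPKM was 1.14 in controls, 2.91 at HS 45 min, 31.5 at HS 135 min, and 1.79, 2.02 and 1.37 at the Tu times. Apoe, which carries lipids, was at 4.75 RPKM in controls and 7.94 at HS 135 min, and Dnajb11 was at 20.9 and 29.6. Sparc and Cst3, a secreted cysteine protease inhibitor, stayed above Clu in every group, at 638 and 597 RPKM at HS 135 min.

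**Figure D4:**
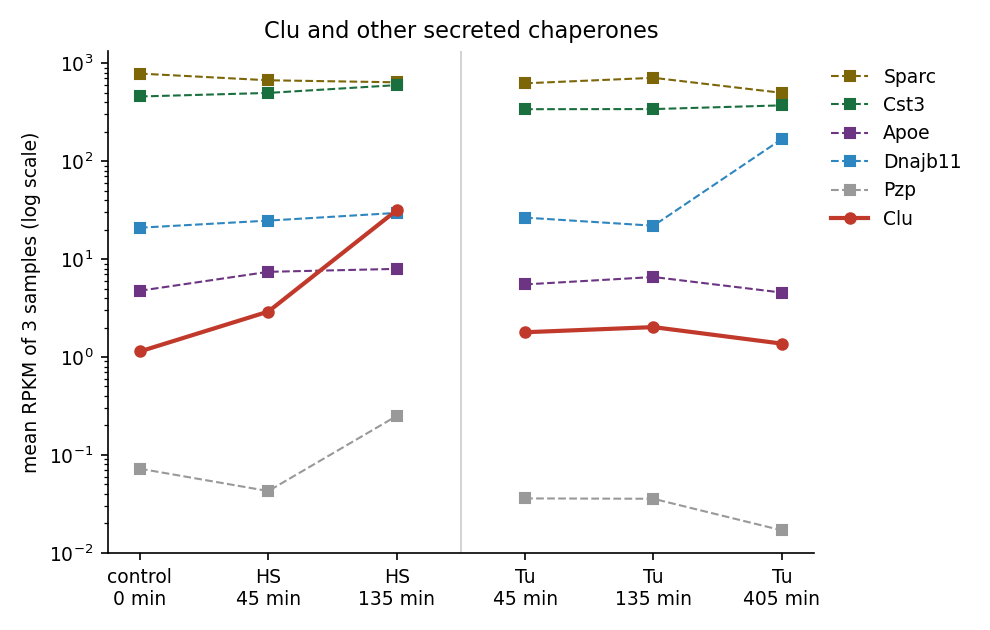
Mean RPKM of 3 samples per group, on a log axis, for Clu and 5 other secreted chaperones; lines join times of HS with the control, and times of Tu. Clu goes from 1.14 RPKM in control to 31.5 at HS 135 min, while Dnajb11 goes to 168.0 at Tu 405 min.

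Of 8 receptors and receptor-associated genes for clusterin, 7 were tested. At HS 45 min edgeR called 0, with a median of 0.03, while 2 were lower at an unadjusted p under 0.05, against 7.2% of all genes. DESeq2 called 1 lower there, where it called 65 of all genes lower. At HS 135 min edgeR and DESeq2 called 0, with a median of 0.02. At that time 1 was lower at an unadjusted p under 0.05, against 13.5% of all genes. DESeq2 then called 1232 of all genes higher and 927 lower. At HS 45 min without the third sample edgeR called 2 higher and 2 lower, against 45.4% of all genes. At Tu 45 min 4.01% of all genes were called higher and 2.17% lower. Vldlr, the very-low-density lipoprotein receptor, was then called higher (0.95, adjusted p = 0.0225, edgeR) and Lrp8, the apolipoprotein E receptor, lower (-0.53, adjusted p = 0.0368). Both calls were lost without the first or second Tu 45 min sample and without the second or the third control, and that of Lrp8 also without the third Tu 45 min sample. At Tu 405 min 1 was called higher and 3 lower, against 23.3% and 23.5% of all genes. Vldlr rose by 1.23 (adjusted p = 0.000443, edgeR), whereas Lrp8 fell by 1.22 (adjusted p = 0.000183) and Lrp1, the large endocytic receptor, fell by 0.84 (adjusted p = 0.037), a call lost without any 1 of the Tu 405 min samples.

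Among 14 factors that act on the clusterin promoter or in its known regulatory pathways, all tested, 2 were called higher and 1 lower at HS 135 min by edgeR, with a median of 0.44. The shares of all genes called there were 4.75% higher and 2.64% lower. Jund, an AP-1 subunit, rose by 1.45 (adjusted p = 0.0439) and Myc by 1.44 (adjusted p = 0.021), and Egr1, an immediate early factor, fell by 1.03 (adjusted p = 0.0492). All 3 calls were lost without the third HS 135 min sample, or the second or the third control, and 1 was left without the first control. At HS 45 min edgeR called 0 of the 14, with 5 higher at an unadjusted p under 0.05, against 12.3% of all genes. DESeq2 called 3 higher, where it called 386 of all genes higher. Without the third HS 45 min sample edgeR called 10 higher, against 21.5% of all genes. Hsf1 itself was at 104.0 ± 11.8 CPM (SD, n = 3) in controls and its log2 fold change at HS 135 min was 0.35 (adjusted p = 0.388, edgeR).

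With tunicamycin edgeR called some of these factors at each time. Myc was the 1 factor called at Tu 45 min (1.85, adjusted p = 0.00122, edgeR), where 4.01% of all genes were called higher and 2.17% lower. At Tu 135 min Egr1 (2.18, adjusted p = 0.0128) and Fos (2.14, adjusted p = 0.0457) were called higher, where 0.126% of all genes were. Both calls were lost without the second or the third Tu 135 min sample or the second or the third control, and 1 without the first control. They were also lost with the replicate number as a block, in the comparison where the numbers pair the samples. By 405 min 4 were called higher and 5 lower, where 23.3% and 23.5% of all genes were. Myc rose by 2.26 (adjusted p = 2.3e-05) and Hsf1 by 0.85 (adjusted p = 0.00125), and Jun fell by 1.84 (adjusted p = 3.4e-05) and Fos by 1.18 (adjusted p = 0.00474).

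Of 11 genes that process or bind clusterin inside the cell, 10 were tested, and edgeR called 0 at either heat time, at Tu 45 min and at Tu 135 min. It called 3 higher and 1 lower at HS 45 min without the third sample, against 21.5% and 23.9% of all genes. At an unadjusted p under 0.05, 1 was higher at HS 45 min, 3 at HS 135 min and 1 at Tu 135 min. Over all genes 12.3%, 16.1% and 10.1% were. At Tu 45 min 1 was lower at that p, against 11.5% of all genes. DESeq2 called 1 higher at HS 135 min, where it called 1232 of all genes higher. At Tu 405 min 3 were called higher and 4 lower, against 23.3% and 23.5% of all genes. Calr, the ER lectin chaperone calreticulin that handles N-glycoproteins, rose by 2.29 (adjusted p = 6.1e-05) and Bax, a proapoptotic protein to which intracellular clusterin binds, rose by 0.91 (adjusted p = 0.00178). Furin, a proprotein convertase of the secretory pathway, fell by 1.59 (adjusted p = 0.00166). Of 9 complement regulators, 3 were tested. The 1 that edgeR called with all samples was Cd55 (decay accelerating factor), which fell at Tu 405 min by 1.12 (adjusted p = 0.00202), where 23.5% of all genes were called lower. In the other 4 comparisons 0 of the 3 were counted by edgeR, by DESeq2 and at an unadjusted p under 0.05. At HS 45 min without the third HS 45 min sample edgeR called 1 lower, where it called 23.9% of all genes lower.

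The genes beside Clu on chromosome 14 were called higher in none of the 5 comparisons with control. Of the 3 listed genes on either side, Gulo and Adam2 had at most 1 read and were not tested. Scara3, a scavenger receptor-like protein, stood at 62.7, 63.9 and 62.2 CPM in the controls and at 29.6, 19.7 and 25 at HS 135 min, with no overlap. It fell at HS 135 min by 1.34 (adjusted p = 0.0199, edgeR) and at Tu 405 min by 2.37 (adjusted p = 1.7e-05). The call of Scara3 at HS 135 min was lost without the third HS 135 min sample (adjusted p = 0.121, edgeR), without the second control (0.111) and without the third control (0.116). With all samples edgeR called Ccdc25 and Esco2 in none of the 5 comparisons with control, and it called Ephx2, a soluble epoxide hydrolase, at Tu 405 min alone (-0.75, adjusted p = 0.0243). That call of Ephx2 was lost without the second or the third sample of either group, with an adjusted p between 0.0586 and 0.0993 (edgeR). DESeq2 also called Ephx2 (-0.68, adjusted p = 0.0196) and Scara3 (-0.49, 0.0149) at Tu 45 min. Without the third HS 45 min sample edgeR called Ccdc25 (-2.8, adjusted p = 0.00261), Ephx2 (-1.35, 0.00577) and Scara3 (-0.74, 0.00842) lower at HS 45 min. Leaving out the first control added Ccdc25 (-0.68, 0.00186) and Esco2 (-0.61, 0.00205) at Tu 405 min, and a fit over all 6 groups added Esco2 at HS 135 min (-0.91, 0.0142). At Tu 45 min, leaving out the first control also added Ephx2 (-0.77, 0.0331) and Scara3 (-0.48, 0.0438), and a GC offset added Ephx2 (-0.67, 0.039).

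The genes whose pattern was most like that of Clu were taken as the 10 with the highest Pearson r of log2 CPM over the 18 samples, among 10856 genes with a mean of at least 1 CPM. These were Dnaja4 (r = 0.977), Mns1 (0.976), Mt1 (0.965), Taok3 (0.963), Sec14l1 (0.953), D8Ertd82e (0.948), Stip1 (0.947), Zscan29 (0.94), Fermt3 (0.934) and Dst (0.932). The samples share their groups and libraries, so r is a description. Over deviations from the group means it was 0.749 for Dnaja4 and 0.341 for Mns1. Over the 20 HSF1 targets the median r with Clu was 0.85, and over all 10856 genes it was -0.06. These r values were taken over samples that include the heat samples by which Clu was chosen. A high r of heat-induced genes therefore follows in part from that choice. Over deviations from the group means, r of the HSF1 targets with Clu ran from -0.569 (Hspa4l) to 0.692 (Stip1). Of the 10, 4 were also among the 10 highest when r was taken over the 6 group means.

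By r over the 18 samples, Dnaja4 had the pattern most like that of Clu. Over the 6 group means Mns1 (0.998) and D8Ertd82e (0.989) had a higher r than Dnaja4 (0.985). The levels of Dnaja4 were 5.02, 5.8 and 5.33 CPM in controls, 26.6, 25.8 and 12.1 at HS 45 min and 87.7, 205.0 and 188.0 at HS 135 min. Its Tu samples ran from 5.15 to 8.73 CPM. Mt1, a metallothionein, started far higher than Clu, at a mean of 917 CPM, and reached 3930 at HS 135 min, a log2 fold change of 2.1. Mns1, a protein of cilia and sperm flagella, went from a mean of 6.63 CPM to 64.1. Within HS 135 min the first sample was the lowest for Clu, Dnaja4, Mns1 and Mt1. Among the 20 HSF1 targets it was the lowest for 10, such as Bag3 and Hspa1b, and the highest for 9, such as Hspa8 and Hsph1, the latter at 2720 CPM against 1240 and 2120.

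**Figure D5:**
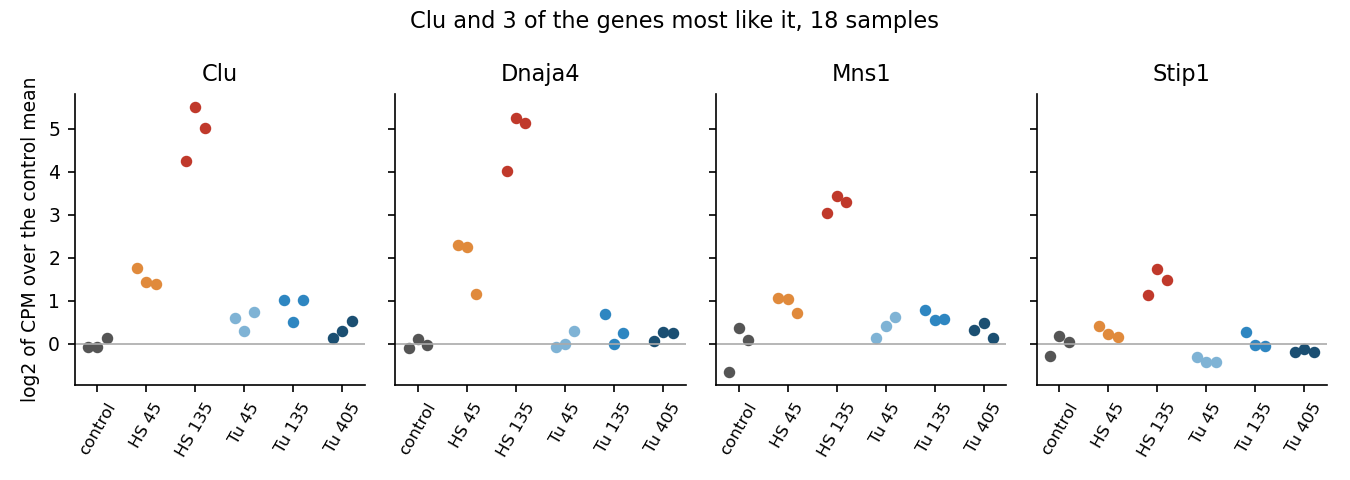
Log2 of CPM over the mean of the 3 control samples, for Clu and 3 of the 10 genes most like it, in each of the 18 samples; each point is 1 sample. The HS 135 min samples are the highest of every panel, and the first of them is the lowest of its group in all 4 panels.

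The letters that HSF1 is known to bind were counted in promoters of genes like Clu and of HSF1 targets. Clu had no entry among the promoters used, so its own promoter was not searched. The motif searched was TTCNNGAA or GAANNTTC, a pair of inverted core units of the heat shock element, which read the same on both strands and can overlap one another. In RefSeq promoters (250 bases before to 50 after a start, GRCm38.p6) 15.1% of all 32851 held 1 or both forms. They were found in 57.1% of the 21 promoters of the 16 HSF1 targets that matched by symbol, and in 8.33% of the 12 promoters of the 9 most-alike genes that matched, which is 1 promoter. That promoter belongs to Dnaja4, and it is shown with those of Hspb1, a small HSP, and Hspa1b, which headed the heat ranking that Clu was chosen from, to let the matched letters be compared. The core units are in capitals.
Dnaja4, chr9:54699459-54699524, + strand: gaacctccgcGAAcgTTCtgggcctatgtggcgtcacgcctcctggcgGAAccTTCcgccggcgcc
Hspa1b, chr17:34959325-34959352, - strand: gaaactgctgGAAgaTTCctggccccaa
Hspb1, chr5:135887792-135887839, + strand: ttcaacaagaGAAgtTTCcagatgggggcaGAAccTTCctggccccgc
A match is a run of letters and not a measured site, and the absence of one says only that the letters are not in the window.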

How the data were processed

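Poly(A) RNA of 18 samples was sequenced by the authors on an Illumina HiSeq instrument. Reads were aligned to mm9 (also named in the submitters' processing notes) and counted on RefSeq genes with the DNAnexus platform; aligner and counter versions are not given in the sources used here. The methods name more than 1 library kit, and which sample had which is not given. For every gene and sample, an estimated count (unnormalized, 4 significant digits) was deposited by the authors, beside an RPKM made from it, a score (RPKM minus the library mean, divided by the SD) and a signal (RPKM divided by its root mean square). The deposited score and signal were not used.

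Estimated counts were joined by gene name and rounded. For each comparison both groups were fitted with edgeR 4.0.16 (R 4.3.3) under TMM and its quasi-likelihood test. Benjamini-Hochberg adjustment ran over 12731 genes. Standard errors were derived from the F statistic. Clu, the gene lists and the comparisons were chosen with earlier results of these data known. The genes named are members of the gene lists that were called, the 10 genes most like Clu, its neighbours in the heat ranking and on the chromosome, and members that show a limit. Scripts were tested on simulated data. Alternatives were DESeq2 1.42.0, other scalings and filters, a fit over all 6 groups, a replicate block, a GC offset and leaving out each sample. Replicates of a group differed by more than sampling noise. Same-numbered samples deviated together in every pair for Tu 135 min against control alone (correlations 0.295, 0.251 and 0.207), where the numbers in the labels were taken to pair the samples; there the block left the call of Clu as it was and took the number of genes called from 17 to 0. Values of 1 receptor gene are not reported here.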

Additional observations from a re-analysis of the deposited data

Results flagged for a closer look

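Among the genes of the lists, 13 results lay on opposite sides of the 3 control samples in HS and Tu at the same time, with no overlap, and the stresses were then compared directly by edgeR. At 45 min the log2 difference of HS minus Tu was 2.62 for Dnajb1 (adjusted p = 0.0207), 6.28 for Hspa1a (0.0455) and 6.4 for Hspa1b (0.0455). It did not pass the threshold for Hsph1 (1.66, 0.066), Vldlr (-1.71, 0.0773) and Ahsa1 (0.98, 0.0807). Without the third HS 45 min sample all 6 passed, with adjusted p from 0.000126 to 0.00152, in a fit that called 55.7% of all genes. Without any other 1 of the 6 samples none of them did. At 135 min it was 2.82 for Dnajb1 (0.00716), 3.74 for Hsph1 (0.0127), 1.92 for Hspb8 (0.0127), 1.5 for Hspa8 (0.0354) and 2.89 for Pzp (0.0181), and it was -3.22 for Egr1 (0.0127), which was below control in HS and above it in Tu. Cryab, at 1.04, did not pass (0.0752). Of the 6 that passed at 135 min, all kept their call without the first or without the second HS 135 min sample, 2 (Dnajb1 and Egr1) without the first Tu 135 min sample, and 0 without the third HS 135 min sample or the second or the third Tu 135 min sample. The difference of Dnajb1 then ran from 2.77 to 2.87. These genes were picked for lying apart in the same samples that were then compared, so their HS and Tu samples could not overlap. The sizes, the adjusted p and the calls are therefore descriptions of these samples and not tests of a difference.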

How the results depend on the processing

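Clu kept its direction in every one of the 11 comparisons under all 15 alternatives each. In the 8 that were tested, no adjusted p was under the threshold in the edgeR fit reported. Clu passed the threshold at HS 45 min against control with DESeq2 (1.55, adjusted p = 4.34e-05) and with all 6 groups in 1 fit (1.53, 0.00648), at Tu 135 min against control with DESeq2 (0.87, 0.0338), from Tu 135 to 405 min with total counts (-0.62, 0.0442) and DESeq2 (-0.56, 0.0478), and at HS 45 min against Tu 45 min with DESeq2 (1.01, 0.00374) and all 6 groups (0.97, 0.0303). The cause was not tested. Counting error came to 9.52% of the level in the controls, close to their CV of 8.61%, whereas it was 5.14% against a CV of 14.6% at HS 45 min, 6.76% against 15.4% at Tu 45 min, 7.31% against 19.0% at Tu 135 min and 7.53% against 13.9% at Tu 405 min.

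With 1 sample left out, the log2 fold change of Clu ran from 1.4 to 1.6 at HS 45 min, 4.72 to 5.28 at HS 135 min, 0.49 to 0.68 at Tu 45 min, 0.79 to 1.02 at Tu 135 min and 0.24 to 0.42 at Tu 405 min against control, from 0.19 to 0.46 between Tu 45 and 135 min, -0.71 to -0.46 between Tu 135 and 405 min, -0.39 to -0.14 between Tu 45 and 405 min, 0.85 to 1.04 between HS 45 and Tu 45 min, 3.14 to 3.69 between HS 135 and 45 min, and 3.84 to 4.39 between HS 135 and Tu 135 min. It then passed the threshold at HS 45 min against control and against Tu 45 min without the third HS 45 min sample, and from Tu 135 to 405 min without the second Tu 135 min sample. An offset for GC content, where the Clu transcript has 55.6% GC against a median of 50.6%, gave 1.26 at HS 45 min against control. Levels in deposited RPKM in place of CPM, an alternative chosen after seeing the data, gave a log2 ratio of means of 1.35 there and 0.7 for HS 45 min against Tu 45 min.

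With the replicate number as a block, Clu was at 1.52 at HS 45 min (adjusted p = 0.124, edgeR) and 0.86 at Tu 135 min (0.0833), and in the 8 tested comparisons the block changed no call of Clu. The labels state no pairing in any comparison. Outside Tu 135 min against control the samples were taken to share only a number. Same-numbered samples correlated at -0.358, -0.32 and 0.213 for HS 135 min, for example, and the block took the genes called there from 941 to 0.

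Summed over the 5 comparisons with control, calls in the gene lists moved more. The 34 calls among HSF1 targets became 13 with the replicate block and 15 to 45 with 1 sample left out. The 4 among extracellular chaperones became 7 with all 6 groups and 3 to 6 with 1 sample left out, the 6 among receptors 3 with the block and 4 to 10, and the 15 among promoter factors 23 with DESeq2 and 23 with all 6 groups and 10 to 25. The 1 complement regulator became 2 with the GC offset, with or without the block, and 1 to 2, and the 7 processing genes 12 with the GC offset and 6 to 11. The numbers of genes called ran from 0 to 5786 at HS 45 min, 0 to 3243 at HS 135 min, 21 to 2499 at Tu 45 min, 0 to 639 at Tu 135 min and 4057 to 7897 at Tu 405 min, and from 0 to 622, 3547 to 8126, 3428 to 7409, 0 to 7087, 0 to 905 and 0 to 1771 in the comparisons of Tu 135 with 45 min, Tu 405 with 135 min, Tu 405 with 45 min, HS 45 with Tu 45 min, HS 135 with HS 45 min and HS 135 with Tu 135 min.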
